A study of Drosophila melanogaster with 12 samples.

Results

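The genes described here are the 7 core genes of the Drosophila circadian clock, per, tim, Clk, cyc, vri, Pdp1 and cry. They were found by name in the annotation of transcription units made for a study of RNA polymerase II in S2 cells, a cultured male fly line. A transcription unit is a stretch of one strand from the outermost start to the outermost end of the genes merged into it. Each of the 7 genes lay in a different unit, so 7 of the 15991 units of the annotation hold a clock gene. The study made 12 mNET-seq libraries, which sequence the nascent RNA held by immunoprecipitated polymerase, in 6 groups of 2 replicates. The groups were MSL1 RNAi for 2 days, MOF RNAi for 4 days and control RNAi (GST in the titles) for 2 days, each profiled for total Pol II and for Pol II with a Ser5-phosphorylated C-terminal domain. MSL1 is the scaffold of the MSL (male-specific lethal) complex, whose histone acetyltransferase is MOF. The days are those of the series' design text. All groups share the same cell line. The annotation carried a value for 0 of the 12 libraries, so polymerase on the clock genes is not analysed here, no test between RNAi groups was made and the depth is unknown. The values below are positions and sizes on the dm6 build, and they have no replicate error.

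The fly clock is a pair of interlocked feedback loops. In the first, the proteins of Clk and cyc form a dimer of bHLH-PAS transcription factors that activates per and tim, and the PER and TIM proteins return to the nucleus and repress that dimer. In the second, the same dimer activates vri and Pdp1, 2 bZIP factors that act in opposite directions on Clk, with VRI as the repressor and PDP1 as the activator. CRY is a blue light photoreceptor that binds TIM in light and leads to its degradation, which sets the clock to the day.

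The clock units were long for this genome, and most of them listed many transcripts. Their median length was 12371 bp (range 2169 to 55912 bp, n = 7), beside a median of 1828 bp over the 15739 units on X, 2L, 2R, 3L and 3R, a ratio of 6.77. All 7 lay above the median of all units, and 5 of 7 lay above their upper quartile of 4217.5 bp. Among units with a protein-coding gene the median was 2221.5 bp, and cyc, at 2169 bp, lay below it. The median number of transcript IDs was 5 in the clock units and 1 over all units. At least 5 transcripts were listed for 4 of 7 clock units (tim, Clk, vri and Pdp1), beside 8.93% of all units. A single transcript was listed for 2 of 7 (cyc and cry), beside 54.4% of all units. Among units with a protein-coding gene the median was 2 transcript IDs. Of those units, 10.7% listed at least 5 and 47.1% listed 1. The members were chosen by name and are few, so these shares are descriptions without a test.

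**Figure D1:**
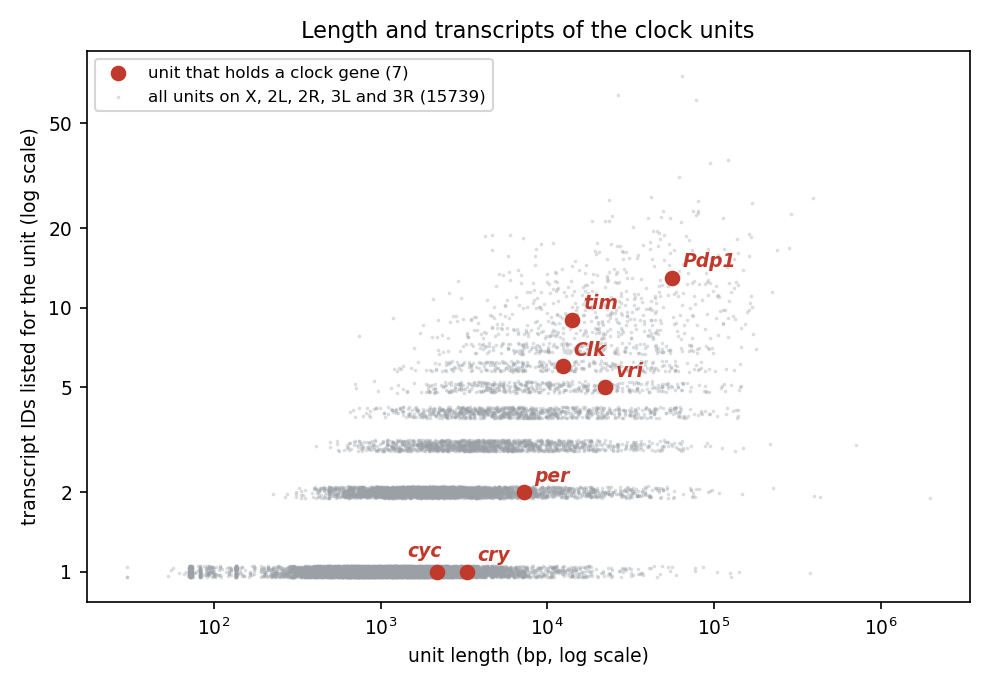
Length of each unit in bp (horizontal, log scale) against the number of transcript IDs it lists (vertical, log scale, all units spread slightly for visibility). Red points are the 7 clock units and grey points the 15739 units on X, 2L, 2R, 3L and 3R; Pdp1 stands at the upper right with 55912 bp and 13 transcripts, and cyc and cry stand at 1 transcript.

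Of the activators of the first loop, Clk (FBgn0023076) had the longer unit. It covered 12371 bp of 3L (minus strand, 7763233 to 7775603) and was longer than 89.9% of all units. It was the only clock unit to hold a second gene, CG32371, where 7.22% of all units held more than 1. In the RefSeq gene table CG32371 is a protein-coding gene of 1084 bp from 7767269 to 7768352, which lies wholly within the span of Clk. It takes up 8.76% of the unit, beginning 7251 bp from the unit's start and ending 4036 bp before its end. The unit listed 6 transcript IDs, and the RefSeq table gives 5 transcripts for Clk and 1 for CG32371. A count taken over this unit would therefore pool both genes. The span of the Clk gene in RefSeq is the span of the unit, so the merger did not lengthen it.

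The partner of Clk in the dimer, cyc (FBgn0023094), had the shortest of the 7 units. It covered 2169 bp of 3L (minus strand, 19813770 to 19815938) and listed 1 transcript. It was longer than 56.3% of all units, which places it near the middle of the genome, while Clk is 5.7 times as long. The units of the dimer's genes were 12.04 Mb apart on the same arm and strand, with 1601 units lying between them.

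The 2 repressor genes of the first loop also differed in both measures. The unit of tim (FBgn0014396) covered 14134 bp of 2L (minus strand, 3493986 to 3508119) and was longer than 91.0% of all units. It listed 9 transcript IDs, a number reached or passed by 2.48% of units, and RefSeq gives 10 transcripts for the gene. The unit of per (FBgn0003068) covered 7201 bp of X (plus strand, 2685580 to 2692780) and listed 2 transcripts. It was longer than 84.2% of all units and longer than 79.5% of units on X. Scaled to length, tim had 6.37 transcript IDs per 10 kb, the highest value of the 7, and per had 2.78. This density was not computed over all units, so the ranking holds only among the 7. A short unit can score high on it with few transcripts, as cyc had 4.61 with 1 transcript in 2169 bp. The gene per is the only one of the 7 on X, the chromosome whose transcription the MSL complex raises in males; the other 6 lie on 2L, 3L and 3R.

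The bZIP genes of the second loop had the longest units. Pdp1 (FBgn0016694) covered 55912 bp of 3L (minus strand, 7811458 to 7867369) and was longer than 98.3% of all units. It listed 13 transcripts, a number that 0.839% of units reached or passed. The unit of vri (FBgn0016076) covered 22280 bp of 2L (plus strand, 5288944 to 5311223) and listed 5 transcripts. It was longer than 94.3% of all units. Per 10 kb, however, Pdp1 and vri listed the fewest transcripts of the 7, with 2.33 and 2.24. The values were 2.78 for per, 3.04 for cry, 4.61 for cyc, 4.85 for Clk and 6.37 for tim, so they did not follow the order of the lengths. The value for Clk counts the 6 transcript IDs of its merged unit, where RefSeq gives 5 for Clk itself, so its place next to cyc is that of the unit.

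The photoreceptor gene cry (FBgn0025680) had a compact unit of 3289 bp on 3R (plus strand, 19212154 to 19215442), with 1 transcript. It was longer than 69.1% of all units. For all 7 genes the unit began and ended exactly where the RefSeq table places the gene. Whether the sources are independent is not known, so the match is not taken as a check of these spans. How many of all units match in this way was not counted.

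Overlaps with other units were short at the ends of per and cry and complete for a small unit inside vri. By at least 1 bp, 3 of 7 clock units overlapped a neighbour, beside 39.4% of all units. Overlaps on the same strand were found for 0% of the 15739 units on X, 2L, 2R, 3L and 3R. Every overlap of these units is therefore with the other strand. The per unit shared 49 bp at its end with CG2650, which the RefSeq table names dyw and which runs towards per. The cry unit shared 9 bp at its end with vib, a phosphatidylinositol transfer protein gene of 11218 bp that also runs towards it. The vri unit is a different case, since it contained on its other strand the whole of CR45730, a non-coding RNA gene of 443 bp whose start lay 8984 bp from that of vri. The units of tim, Clk, cyc and Pdp1 overlapped none.

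**Figure D2:**
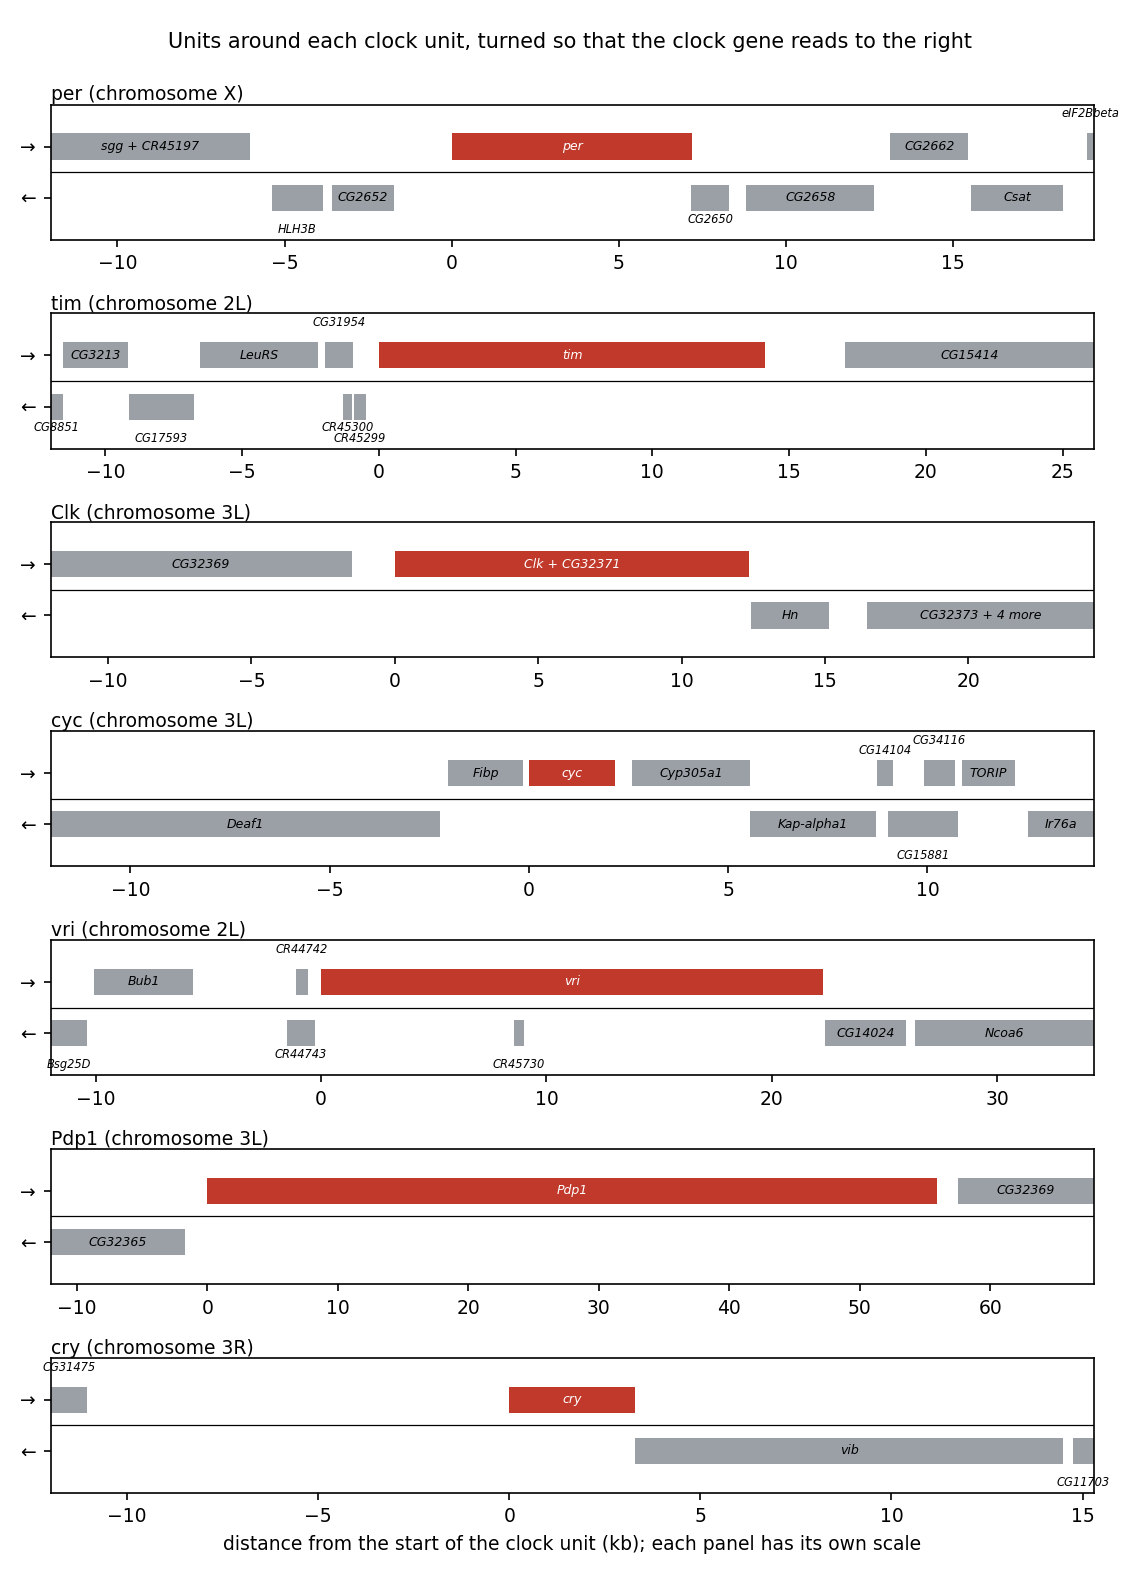
Units around each clock unit, with distance from the clock unit's start in kb (horizontal) and a flank of 12 kb on each side; each panel is turned so that the clock gene (red) reads to the right, units in the upper row run the same way and those in the lower row the opposite way. Where a box is too short, only the first gene of the unit is named; per, Clk, vri and cry each meet the end of a unit running towards them, and the space before cry is empty for 11057 bp.

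The ends of per, Clk, vri and cry each lay close to the end of a unit running towards them. In these 4 of 7 a unit on the other strand ended at most 100 bp from the end of the clock unit, beside 20.9% of all units. The distance between the ends was 8 bp for cry and vib and 48 bp for per and CG2650. It was 67 bp for Clk and Hn, the phenylalanine hydroxylase gene, and 88 bp for vri and CG14024. For the other 3 it was far larger, with 3372 bp for cyc, 14374 bp for tim and 48292 bp for Pdp1. The 100 bp limit was chosen after these distances were seen.

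Divergent starts were found at 2 of 7 clock units, beside 33.3% of all units. A divergent start here lies on the other strand, faces away and is at most 1000 bp off. In both cases the partner was a non-coding RNA gene, but the share of such partners over all units was not counted. The start of vri lay 277 bp from that of CR44743, a unit of 1221 bp. The start of tim lay 479 bp from that of CR45299, a unit of 439 bp. The next nearest were Pdp1, at 1673 bp from CG32365, and per, at 1735 bp from the unit of CG2652 and CR44470. In that last unit the start belongs to the non-coding CR44470, since in RefSeq the span of CG2652 itself stops 2648 bp from the start of per. The start of cyc lay 2236 bp from that of Deaf1, with Fibp between them. Those of cry and Clk had no divergent start nearer than 31616 bp (CG5555) and 93439 bp (CG32365).

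The space free of any unit lay more often before the start of a clock unit than after its end, as it did over all units. It was larger before the start in 5 of 7 clock units (per, Clk, vri, Pdp1 and cry), beside 55.9% of all units. For Pdp1 the sides were nearly equal, with 1672 bp before and 1632 bp after. The others are the units whose end lay at most 100 bp from an opposite end, so these results are not separate. Before the start, the median was 1501 bp in clock units and 357 bp over all units. After the end, the medians were 87 bp in clock units and 166 bp over all units. The space before cry, 11057 bp up to the unit of CG31475 and CR46039, exceeded that of 94.4% of units. Before per, Pdp1 and Clk it was 1734, 1672 and 1501 bp, and before tim 478 bp. It was smaller before vri, at 276 bp, and before cyc, at 146 bp. The unit upstream of cyc was Fibp, which reads in the same direction and so ends 146 bp before cyc starts; downstream, Cyp305a1, a cytochrome gene on the same strand, started 430 bp after cyc ended. By the nearest unit on any side, the median gap was 66 bp in clock units and 69 bp over all units.

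**Figure D3:**
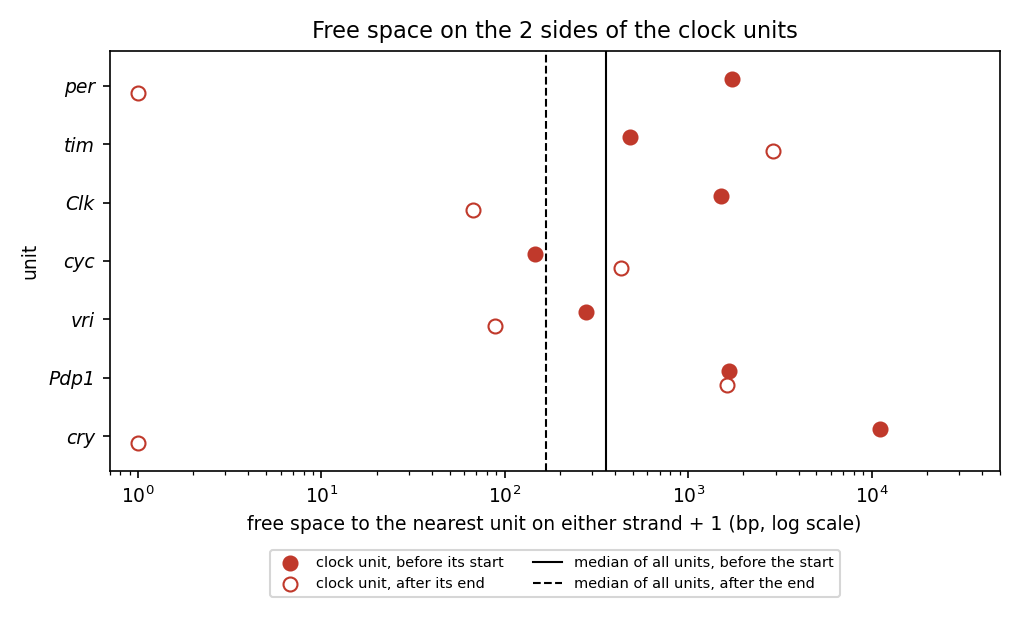
Free space in bp plus 1 (horizontal, log scale) between each clock unit and the nearest unit on either strand, before its start (filled points) and after its end (open points), with the medians of all units as solid (before the start) and dashed (after the end) lines. The open points of per and cry stand at the left edge because another unit overlaps their ends, and the filled point of cry stands farthest right at 11057 bp.

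Clk and Pdp1, a target and its activator in the second loop, are close neighbours. How often units of a named set lie this near was not counted, and a link between nearness and regulation was not tested. Their units lay 35854 bp apart on the minus strand of 3L with only 1 unit between them, CG32369, which is 32721 bp long and reads the same way. From Pdp1 the order along the strand was Pdp1, then CG32369 after 1632 bp, then Clk after a further 1501 bp. Few other units started nearby, with 5 starts within 50 kb of the start of Clk and 6 within 50 kb of that of Pdp1. The median over all units was 16. Of all units, 3.8% had fewer starts around them than Clk and 5.7% had fewer than Pdp1. Both windows cover part of the same ground, since the starts are 91766 bp apart. The counts are also not separate from unit length. The Pdp1 unit, at 55912 bp, fills the whole 50 kb after its start. CG32369 and Pdp1 together fill most of the 50 kb before the start of Clk. The remaining clock units had 12 (cry), 17 (cyc), 18 (per), 19 (vri) and 23 (tim) starts within that distance. On 2L, tim and vri were 1.78 Mb apart with 249 units between them.

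**Figure D4:**
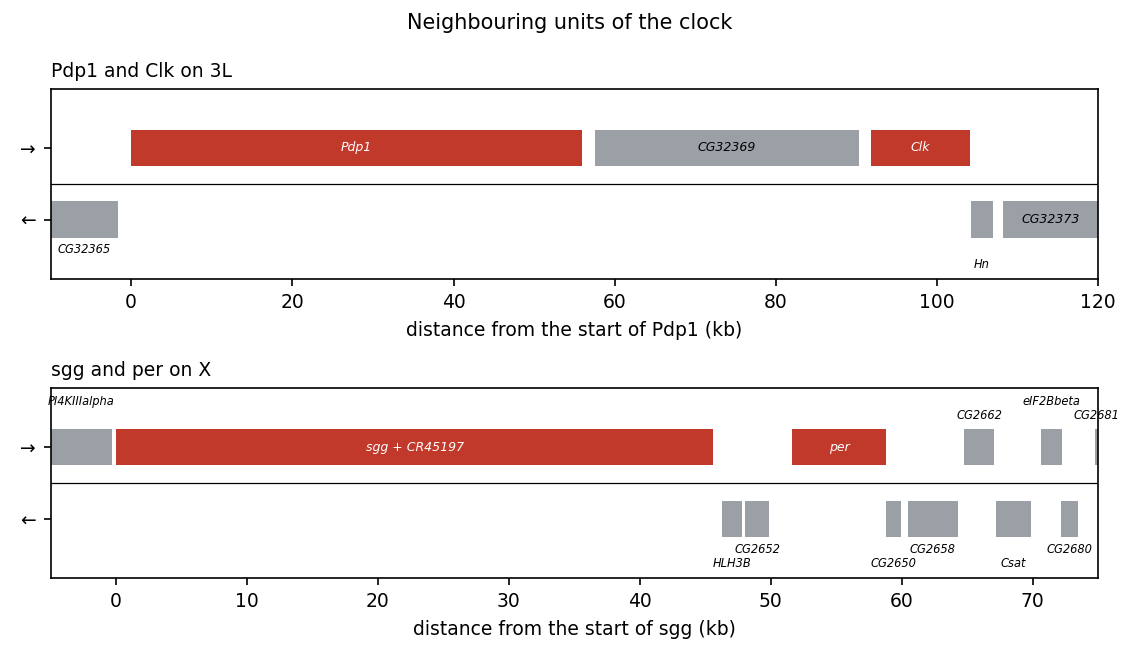
Units at the Pdp1 and Clk locus on 3L (upper panel) and at the sgg and per locus on X (lower panel), with distance in kb (horizontal) from the start of the first red unit; the upper row of each panel runs to the right and the lower row to the left. Red marks the clock genes and, in the lower panel, also the regulator gene sgg; CG32369 alone separates Pdp1 from Clk, and 2 units of the other strand, HLH3B and CG2652 with CR44470, lie between sgg and per.

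Of the listed regulators described below, sgg lay nearest to a clock unit. The nearest unit before per on its own strand was that of sgg, which encodes the kinase Shaggy that phosphorylates TIM. The sgg unit was 45602 bp long with 19 transcript IDs, included CR45197, and ended 6026 bp before per began. The units of HLH3B, a bHLH factor gene, and of CG2652 with CR44470 lay in the interval on the other strand, and its last 1734 bp before per were free of any unit. Pdfr, the receptor gene for the clock neuropeptide PDF, lay 106.9 kb from per with 16 units between. On 3L, nmo, the gene of the kinase Nemo, lay 111.7 kb from Pdp1 with 15 units between. These are the closest of the listed regulators on the arms of clock units. The next, jet, lay 339.2 kb from vri, and the rest on those arms lay at least 1.42 Mb from any clock unit. How often any unit lies this near a listed gene was not counted. The tim unit lay 27873 bp from that of msl-2, with 8 units between them, Thor and Pif1 among them. The gene msl-2 belongs to the MSL complex that the study addresses. This pair was named after its distance was seen, and no other MSL complex gene was measured against a clock unit. How usual such a distance is was not counted.

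Other genes that act in the clock were taken from a list of 18 regulators, all of which were found. The median unit length was 12371 bp for the 7 clock units, 10775 bp for the regulators and 1828 bp for all units, and 16 of 18 regulators lay above the median of all units. The longest was nmo with 75102 bp. The shortest was Pdf, the neuropeptide gene, with 680 bp, and next came jet, the F-box gene that acts with CRY in light, with 1579 bp. The median number of transcript IDs was 4, and sgg had the most with 19. The kinase dco, known as Doubletime, which phosphorylates PER, had a unit of 7126 bp with 4 transcripts on 3R. The repressor gene cwo had a unit of 12495 bp with 3 transcripts, also on 3R. Divergent starts at most 1000 bp away were found for 9 of 18 regulators, beside 33.3% of all units, and overlaps for 4 of 18, beside 39.4%. An opposite end at most 100 bp away was found for 4 of 7 clock units, beside 1 of 18 regulators and 20.9% of all units. It was found for 2 of the 11 matched relatives described below. The 100 bp limit was set after the clock distances were seen, so this contrast is a description only. On X lay 1 of the 7 clock units and 6 of the 18 regulators (sgg, CkIIbeta, Pdfr, tyf, Fbxl4 and norpA), beside 15.2% of all units.

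Long units were also found among relatives of the clock genes, which share their protein families. Of 12 relatives, 11 were matched to a unit; the name dys belongs to more than 1 gene of the table and was left out. Their median length was 20370 bp with a range of 1855 to 75226 bp. In the family of tim, timeout lay in a unit of 75226 bp with 2 transcript IDs on 3R, together with CG34308, and so was longer than tim with fewer transcripts. In the family of cry, the unit of cry had 3289 bp and 1 transcript, beside 2441 bp with 4 transcript IDs for phr6-4 and 2031 bp with 2 for phr, both DNA repair genes. Among 7 bHLH-PAS relatives of Clk and cyc, lengths ran from 3250 bp for tgo to 63488 bp for the unit of sima, which also holds CR46112. The tgo gene encodes a dimer partner common to many bHLH-PAS proteins. The bZIP gene gt, a relative of vri and Pdp1, had 1855 bp and 1 transcript, far below both.

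**Figure D5:**
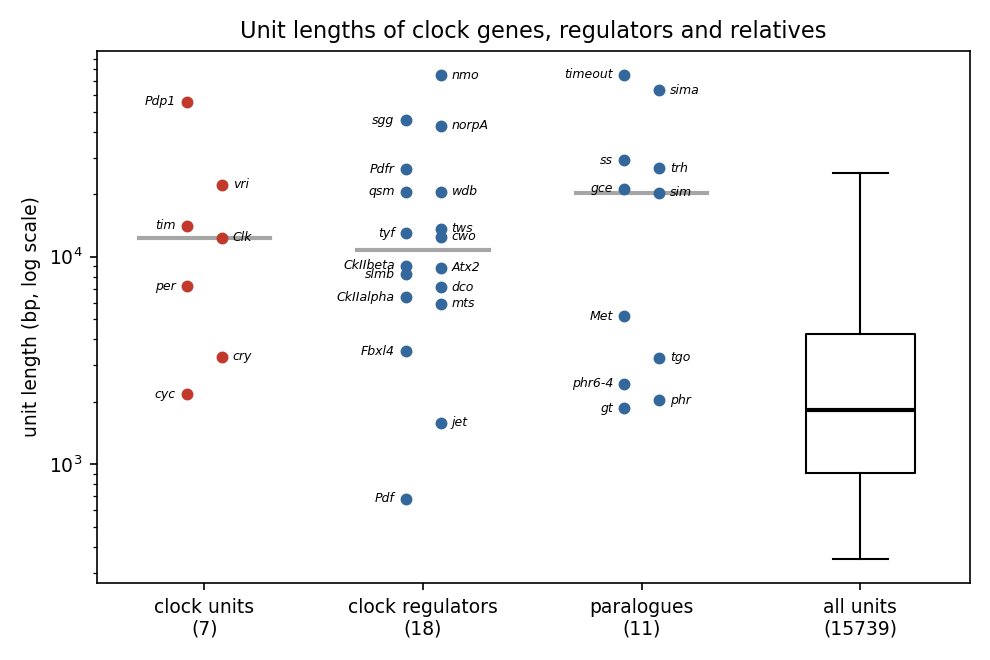
Unit length in bp (vertical, log scale) for the 7 clock units (red), the 18 regulators and the 11 matched relatives (blue), each with its median as a grey bar, beside a box plot of all 15739 units (median, quartiles, whiskers at the 5th and 95th percentile). The medians are 12371, 10775 and 20370 bp for the 3 lists and 1828 bp for all units.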

How the data were processed

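The one deposited file analysed is a list of transcription units, written with rtracklayer 1.48.0, per the file headers; the line labels speak of merged database versions, and the rule for merging genes was not stated in any source used here. Its values are positions in bp (1-based, dm6), and its score field is empty, so none of the 12 libraries has a value. The submitters' processing notes name cutadapt 2.8, STAR 2.7.4a, SAMtools 1.20 and DESeq2, none of which could be checked here.

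Units were found by gene name. Spans, gene classes and RefSeq transcripts came from the RefSeq table of Release 6. Percentiles are shares of 15739 units on 5 arms. Overlaps, gaps to the nearest unit, divergent distances and the free space on each side were tested on simulated data (120 intervals, 0 mismatches). Distances between ends, same-strand measures, gaps with overlapping units skipped and the starts within 50 kb were not part of that test. No test was made. The clock genes and the lists were chosen with earlier results of these data known. The named genes are all members, their nearest, overlapping, divergent and convergent neighbours, and the extremes of the 2 lists; other list members, Thor, Pif1 and msl-2 were named after their values were seen. Planned motif searches in promoters were not run, since no sequence was used here. Python 3.11.15, NumPy 2.4.6, pandas 2.3.3 and Matplotlib 3.10.9 were used.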

Additional observations from a re-analysis of the deposited data

How the results depend on the processing

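No paired analysis was possible because the annotation has no column for any library, which also means that no replicate could be left out. Of 16 alternatives, 9 kept their value within 1.5 times and 7 did not. The ratio of the clock median length to that of all units, 6.77, stayed between 5.57 and 7.30 against single-gene units, units with a protein-coding gene, units of the same arm, or without the Clk unit. The ratio of median transcript numbers fell to 2.5 against units with a protein-coding gene, in place of 5. Without the Clk unit it was 3.5. With overlaps of at least 100 bp only vri overlapped (1 unit, beside 28.6% of all units). On the same strand 0 did, as for all units on the 5 arms. That alternative could return only 0, though it is counted among the 7 that did not keep their value. With divergent starts up to 2000 bp, 4 clock units had one (41.2% of all units), since Pdp1 and per were added. The median gap was 1501 bp on the same strand (1041 bp over all units) and 478 bp with overlapping units skipped (303 bp over all units). Ends at most 50 bp apart were found at 2 clock units (12.4% of all units), and at most 500 bp apart at 4, where the share of all units was 36.5% in place of 20.9% at 100 bp. The limits for ends and the comparison by arm were chosen after seeing the data. The alternatives for promoter motifs were not run. All values rest on annotated spans and say nothing of transcription in S2 cells.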
